A study of Saccharomyces cerevisiae with 17 samples.

Results

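The genes of the core histones of Saccharomyces cerevisiae were followed across 17 RNA sequencing libraries: HTA1 and HTA2 for histone H2A, HTB1 and HTB2 for H2B, HHT1 and HHT2 for H3, and HHF1 and HHF2 for H4. They were chosen by name, as the genes that encode the 4 proteins of the nucleosome core, and are 8 of the 7125 features in the deposited table. The study was about the control of yeast phosphate genes, with Spl2, a 14-3-3 protein and alternative transcription in view. Every strain was BY4741, a haploid of mating type a used widely in laboratories, or a deletion made in it, and the medium was supplemented with leucine, histidine, methionine and uracil. Cells from cultures with 7.2 mM phosphate were washed and then incubated at 30 °C for 60 min, either at 7.2 mM phosphate again or at 0 mM. In experiment 1 there were 3 libraries of BY4741 at 7.2 mM, 3 of BY4741 at 0 mM, 2 libraries of the spl2 deletion at 7.2 mM, 3 of the spl2 deletion at 0 mM and 1 of the bmh1 deletion at 7.2 mM. Experiment 2 held 1 BY4741 library and 2 rrp6 deletion libraries at 7.2 mM. Experiment 3 held 1 BY4741 library and 1 library of BY4741 lacking block P of the SPL2 promoter, both at 7.2 mM.

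Histones H2A, H2B, H3 and H4 form the protein core around which DNA is wrapped, and new copies are needed when DNA is replicated. In budding yeast each core histone is encoded by a pair of genes, and the 8 genes lie as divergent pairs, each gene sharing the region upstream of it with the gene of its partner histone. Their mRNAs are polyadenylated, rise in S phase and are short-lived. Outside S phase the HIR complex, with Asf1 and Rtt106, represses all gene pairs but that of HTA2 and HTB2, while Spt10 and Spt21 activate histone genes. Rrp6 is the nuclear 3′ exonuclease of the RNA exosome, Bmh1 is a 14-3-3 protein, and Spl2 is a regulator of low-affinity phosphate uptake.

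In the RefSeq R64 annotation each of the 8 genes has 1 coding exon. HTA1 (YDR225W) and HTB1 (YDR224C) lie on chromosome IV at 915530 to 915928 on the plus strand and 914317 to 914712 on the minus strand. HTA2 (YBL003C) and HTB2 (YBL002W) lie on chromosome II at 235394 to 235792 on the minus strand and 236492 to 236887 on the plus strand. HHT1 (YBR010W) and HHF1 (YBR009C) lie on chromosome II at 256331 to 256741 on the plus strand and 255373 to 255684 on the minus strand. HHT2 (YNL031C) and HHF2 (YNL030W) lie on chromosome XIV at 575640 to 576050 on the minus strand and 576727 to 577038 on the plus strand. The coding sequence is 399 bases for the H2A genes, 396 for the H2B genes, 411 for the H3 genes and 312 for the H4 genes. The regions between the start codons are 817 bases for HTA1 and HTB1, 699 for HTA2 and HTB2, 646 for HHT1 and HHF1, and 676 for HHT2 and HHF2.

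The stretch of each shared upstream region that holds the histone upstream element is shown, because it is what the 4 gene pairs have in common. The element was searched on both strands as TTCC, any 6 bases, TTC, any base and C. The sequences below are from RefSeq R64, plus strand, 5′ to 3′, with 40 bases on either side. Capitals mark the matches, and a match on the minus strand appears as its reverse complement. The positions are chrIV:915074-915191 for HTA1 and HTB1, chrII:236068-236162 for HTA2 and HTB2, chrII:255904-255998 for HHT1 and HHF1, and chrXIV:576306-576400 for HHT2 and HHF2.
HTA1-HTB1: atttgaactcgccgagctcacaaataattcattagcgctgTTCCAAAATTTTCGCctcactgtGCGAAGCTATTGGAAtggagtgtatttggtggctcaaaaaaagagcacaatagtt
HTA2-HTB2: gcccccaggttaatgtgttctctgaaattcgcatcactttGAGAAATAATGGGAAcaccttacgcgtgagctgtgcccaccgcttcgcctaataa
HHT1-HHF1: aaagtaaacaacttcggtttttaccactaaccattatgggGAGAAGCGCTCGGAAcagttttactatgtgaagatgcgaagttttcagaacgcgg
HHT2-HHF2: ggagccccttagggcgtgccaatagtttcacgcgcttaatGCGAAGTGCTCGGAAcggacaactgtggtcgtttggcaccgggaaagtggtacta

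The element was present in all 4 histone regions, with 2 matches between HTA1 and HTB1 and 1 in each of the other regions. Among 534 regions of 500 to 1000 bases between divergent genes, the 4 histone regions included, 42 held it (7.87%). The element was chosen as that of histone genes, so this share is a description only. CGCGAAA was found in 2 of the 4 histone regions, ACGCGT in 1 and CACGAAA in 0, beside 8.61%, 7.87% and 10.1% of the 534 regions. The ACGCGT match lies beside the element between HTA2 and HTB2. A match describes the letters only.

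Recovered depth was 17456347 to 44667491 reads per library, so each histone mRNA rested on deep counts. SPL2 had at most 8 reads in the 5 spl2 deletion libraries, BMH1 had 46 reads in the bmh1 deletion library and RRP6 had 0 reads in both rrp6 deletion libraries. The 5 genes of mating type a summed to 881 to 2016 RPM and the 4 genes of mating type alpha to 29.9 to 58.0 RPM. BY4741 library 10 at 7.2 mM and library 17 at 0 mM stood apart from the other libraries of their groups, with a mean chi-square per gene of 23.9 and 26.6 for library 10 and of 20.9 and 21.9 for library 17. The other pair within each of these groups had 3.84 and 4.97. Libraries of the spl2 deletion also lay far apart, with 22.1 for libraries 7 and 18 at 7.2 mM. At 0 mM library 12 had 18.0 and 26.9 against libraries 19 and 20, which had 11.1 between them. Results that turn on BY4741 libraries 10 and 17 are also given without them.

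The 8 histone mRNAs together took 0.793% to 1.29% of the reads of a library. In BY4741 at 7.2 mM in experiment 1 their summed level was 9587 ± 554 RPM (SD, n = 3), where RPM is the read count of a gene scaled to the same read total in every library. Levels of different genes are compared as RPM per kilobase of coding sequence. On that scale the H4 genes and HHT1 were highest, with HHF2 at 4601 ± 299, HHF1 at 4550 ± 274 and HHT1 at 4346 ± 369 (SD, n = 3), and these 3 overlapped. HHT2 followed at 3240 ± 134, below every HHT1 value and above every HTA2 value. HTA2 at 2773 ± 270 and HTB1 at 2411 ± 103 overlapped. HTA1 at 1982 ± 74.3 and HTB2 at 1923 ± 69.9 were lowest and overlapped with each other.

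The 4 genes of H3 and H4 therefore stood above the 4 genes of H2A and H2B in these libraries. The level of a gene and its near-identical copy is uncertain, because how the authors counted reads that match both copies is not given in the sources used here. The coding sequences of HHF1 and HHF2 are 97.4% identical, with 8 mismatches and an identical run of up to 80 bases. Identity was 93.7% for HTA1 and HTA2, 93.2% for HHT1 and HHT2 and 87.9% for HTB1 and HTB2. Use of strand in counting is likewise not given.

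**Figure D1:**
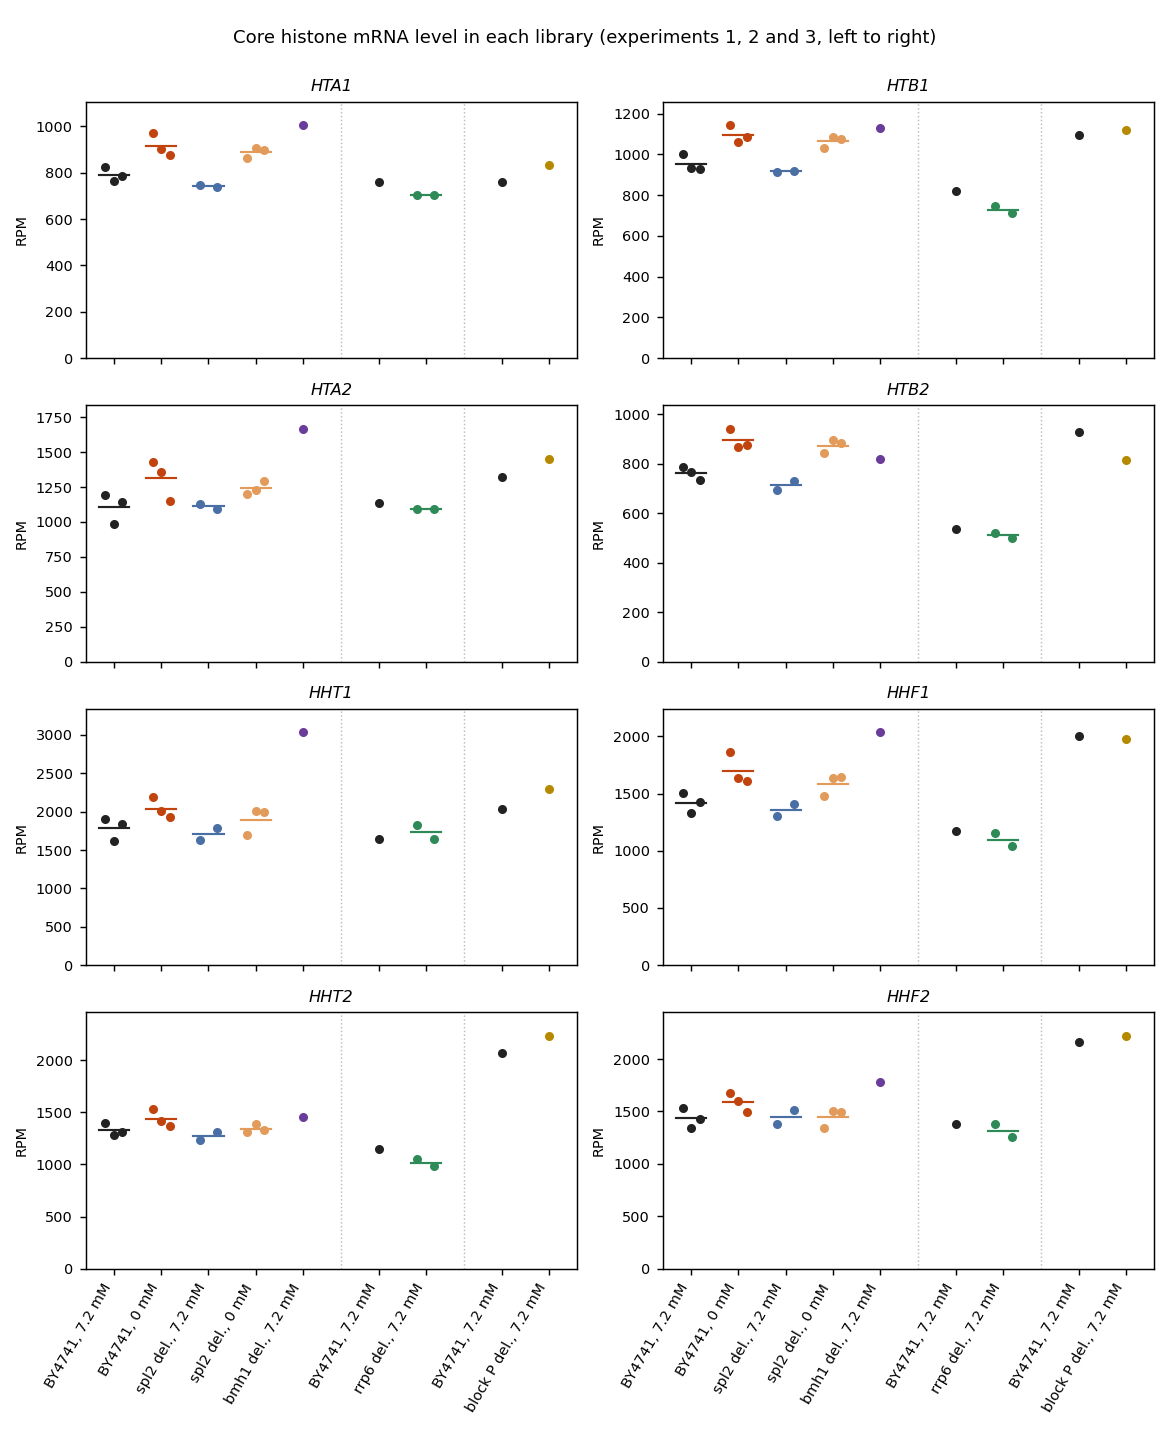
Level of each core histone mRNA in RPM (vertical axis, from 0) in all 17 libraries, with strain and phosphate on the horizontal axis and dotted lines between experiments 1, 2 and 3. Points are libraries and horizontal lines are group means where a group has more than 1 library; HHT1 in the bmh1 deletion, at 3036 RPM, is above every other HHT1 value.

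The first comparison asked what happened to histone mRNA when phosphate was removed for 60 min. In BY4741 the median histone mRNA changed by as much as the median gene did, while the median over other genes of like length and level was lower. On the RPM scale 6 of the 8 were higher at 0 mM and 0 were lower, beside 60.9% of the 6015 genes tested called higher and 6.68% called lower. The median gene was higher by 0.21 on the log2(RPM + 1) scale, and so was the median of the 8 histone genes (0.21). TMM scaling aims to scale the libraries so that the bulk of the genes shows no change. After it 0 of the 8 were called in either direction, beside 18% of genes called higher and 20.4% lower. At that scaling 0 of the 8 had an unadjusted p below 0.05, and edgeR and DESeq2 also called 0.

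The 19 other genes of 300 to 450 coding bases that reached 500 RPM, of which 12 encode ribosomal proteins, had a median change of -0.33 on the RPM scale, with a 10th to 90th percentile of -0.50 to 0.08. All 8 histone genes lay above that range, at 0.11 to 0.26. The 304 other genes at 500 RPM or more, of any length and with 128 ribosomal protein genes among them, had a median of -0.21. These are descriptions, and no difference between the sets was tested.

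For H2A, HTA1 was at 823, 764 and 786 RPM in BY4741 libraries 11, 10 and 13 at 7.2 mM, and at 970, 901 and 875 RPM in libraries 14, 16 and 17 at 0 mM. The groups did not overlap, and HTA1 was higher by 0.21 ± 0.051 (log2, SE) with an adjusted p of 0.0024 by limma. HTA2 was at 1194, 986 and 1140 RPM with phosphate and at 1430, 1354 and 1149 RPM without it. Library 17 fell below library 11, so the HTA2 groups overlapped, at a change of 0.24 ± 0.079 (adjusted p = 0.0138, limma). The HTA2 call was lost when library 10, 14 or 16 was left out, at 0.16, 0.18 and 0.22 (adjusted p = 0.0758, 0.0783 and 0.0516, limma), and held at 0.25 without both libraries 10 and 17. In bulk RNA, fewer cells in S phase and less histone mRNA in each cell cannot be told apart, and the same holds for more cells or more mRNA.

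For H2B, HTB1 was at 1002, 935 and 928 RPM with phosphate and at 1143, 1062 and 1085 RPM without it. HTB2 was at 787, 765 and 732 RPM with phosphate and at 941, 867 and 876 RPM without it. Neither gene's groups overlapped on the RPM scale, on which 60.9% of all genes were called higher. After TMM scaling the groups overlapped for every histone gene, HTA1 and HHF1 included. The share of all genes without overlap is not given here. HTB1 was higher by 0.20 ± 0.050 (adjusted p = 0.0028, limma) and HTB2 by 0.23 ± 0.052 (adjusted p = 0.00123, limma).

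For H3, HHT1 was at 1905, 1616 and 1838 RPM with phosphate and at 2188, 2003 and 1932 RPM without it, a change of 0.19 ± 0.078 (adjusted p = 0.0391, limma). This call was lost without both libraries 10 and 17, at a change of 0.16, and when library 10, 13, 14 or 16 alone was left out, at 0.12 to 0.22. HHT2 was at 1393, 1287 and 1315 RPM with phosphate and at 1528, 1415 and 1365 RPM without it. The HHT2 groups overlapped and its change of 0.11 ± 0.056 did not pass (adjusted p = 0.0976, limma), but it passed without library 17, at 0.14 (adjusted p = 0.0472, limma).

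For H4, HHF1 was at 1501, 1331 and 1427 RPM with phosphate and at 1861, 1635 and 1606 RPM without it, with no overlap. HHF1 was higher by 0.26 ± 0.068 (adjusted p = 0.00393, limma). HHF2 was at 1533, 1346 and 1428 RPM with phosphate and at 1679, 1599 and 1495 RPM without it, with overlapping groups and a change of 0.15 ± 0.066 (adjusted p = 0.0588, limma). HHF2 passed without library 17, at 0.19 (adjusted p = 0.0293, limma), or without library 11, at 0.20 (adjusted p = 0.0305, limma). The 2 genes of chromosome XIV, HHT2 and HHF2, thus had the smallest changes of the 8.

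Measured against the median gene, the 8 changes ran from -0.10 for HHT2 to 0.05 for HHF1. After TMM scaling the 95% interval was -0.23 to 0.02 for HHT2 and -0.11 to 0.20 for HHF1. The direction of HTA1, HTB1 and HHT1 turned under TMM scaling, at -0.0023, -0.013 and -0.019. The summed histone level was 10987 ± 691 RPM at 0 mM (SD, n = 3), against 9587 ± 554 RPM at 7.2 mM.

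Genes that control histone transcription moved with or above the median gene in BY4741. All 12 promoter regulators tested were higher at 0 mM on the RPM scale, beside 60.9% of all genes. After TMM scaling 4 remained higher, beside 18% of all genes. The largest changes were in ASF1, a histone chaperone (74.2 to 107 RPM, 0.52 ± 0.072), RTT106, another histone chaperone (0.40 ± 0.060), and SPT21, an activator of histone genes (0.38 ± 0.073). The other histones on the list were higher as well, 3 of 3 on the RPM scale and 2 with TMM scaling. Linker histone HHO1 went from 154 to 224 RPM (0.53 ± 0.061), the centromeric H3 variant CSE4 changed by 0.38 ± 0.072 and the H2A variant HTZ1 by 0.28 ± 0.053. Of 13 genes for histone chaperones and assembly, 12 were higher on the RPM scale, led by RLF2, the largest subunit of chromatin assembly factor 1 (0.48 ± 0.061). After TMM scaling 3 of the 13 were higher and 1, the H2A and H2B chaperone gene NAP1, was lower.

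Other genes of the G1 and S phases are given beside the core histone genes. All 16 DNA replication genes of late G1 were higher at 0 mM on the RPM scale (60.9% of all genes), with a median of 0.41. After TMM scaling 12 were higher (18% of all genes), with a median of 0.20 beside -0.01 for the 8 histone genes. Examples were POL2, a DNA polymerase subunit (0.55 ± 0.069), and RNR1, a subunit of ribonucleotide reductase (503 to 723 RPM, 0.52 ± 0.067). Of 5 G1 and S cyclin genes, 5 were higher on the RPM scale and 3 with TMM scaling, led by CLN1 (0.71 ± 0.078). Of 10 genes of G2 and M phase, 1 was higher and 2 lower on the RPM scale, beside 60.9% and 6.68% of all genes. After TMM scaling 1 was higher and 9 lower, beside 18% and 20.4%. The difference between these lists and the histone genes was not tested.

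The spl2 deletion was compared between the same phosphate levels. On the RPM scale 4 of the 8 histone mRNAs were higher at 0 mM, namely HTA1, HTB1, HTB2 and HHF1, and 0 were lower, beside 57.3% of the 6033 genes tested called higher. The median gene was higher by 0.23 and the median histone gene by 0.19. After TMM scaling 0 were higher, beside 21% of genes, and HHF2 was lower, beside 23.2% of genes. These 4 were also among the 6 called in BY4741 on the RPM scale, and HHT2 and HHF2 were called in neither strain on that scale.

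HTB2 was at 695 and 731 RPM in spl2 deletion libraries 7 and 18 at 7.2 mM and at 841, 895 and 883 RPM in libraries 12, 19 and 20 at 0 mM. Its groups did not overlap, and its change was 0.29 ± 0.058 (adjusted p = 0.000484, limma). HTA1 was at 747 and 738 RPM with phosphate and at 862, 908 and 896 RPM without it, a change of 0.26 ± 0.058 (adjusted p = 0.00114, limma). The groups of HTA1, HTB1, HTA2 and HHF1 did not overlap on the RPM scale either, on which 57.3% of all genes were called higher. After TMM scaling the HTA1 groups overlapped and those of HTB2 did not. The share of all genes without overlap is not given here.

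HTB1 was higher by 0.21 ± 0.056 (917 to 1064 RPM, adjusted p = 0.00369, limma) and HHF1 by 0.22 ± 0.077 (1359 to 1585 RPM, adjusted p = 0.0189, limma). The HHF1 call was lost when library 7, 19 or 20 was left out, at 0.17, 0.20 and 0.19. HTA2 at 0.16 ± 0.089, HHT1 at 0.15 ± 0.088 and HHT2 at 0.07 ± 0.062 did not pass, though HHT1 passed without library 12, at 0.23 (adjusted p = 0.0276, limma). HHF2 was at 1381 and 1513 RPM with phosphate and at 1344, 1507 and 1500 RPM without it, a change of 0.0023 ± 0.074 on the RPM scale and of -0.23 after TMM scaling (95% interval -0.40 to -0.06, adjusted p = 0.0288, limma). Other genes of 300 to 450 coding bases had a median of -0.27 after TMM scaling, and with the trend over coding length removed HHF2 was at 0.07 and did not pass (adjusted p = 0.403, limma). HHF2 was the lowest of the 8 against the median gene (-0.23) and HTB2 the highest (0.06).

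In the spl2 deletion all 12 promoter regulators were higher on the RPM scale and 7 with TMM scaling, beside 57.3% and 21% of all genes. SPT10, an activator of histone genes, went from 23.9 to 34.9 RPM (0.53 ± 0.076), with SWI6 at 0.47 ± 0.070 and MBP1 at 0.47 ± 0.071, the subunits of the factor that binds ACGCGT. Of the other histones on the list 3 of 3 were higher on the RPM scale and 1 with TMM scaling, and HHO1 was higher by 0.51 ± 0.068. The 372 other genes of 300 to 450 coding bases, the range that holds the 8 histone genes, had a median change of -0.05 in this strain, whereas 515 genes of at least 3000 bases had 0.42. The 19 of them that reached 500 RPM had a median of -0.43 (10th to 90th percentile -0.70 to -0.13), and all 8 histone genes lay above that range. In BY4741 the medians were 0.18 for 368 such short genes and 0.23 for 516 long genes. With the trend over coding length removed from each library, a step added after this was seen, 5 of the 8 histone genes were higher in the spl2 deletion at 0 mM (background 15.6%) and 0 of 8 in BY4741 (background 20.6%). The part of coding length in these calls was not tested further.

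**Figure D2:**
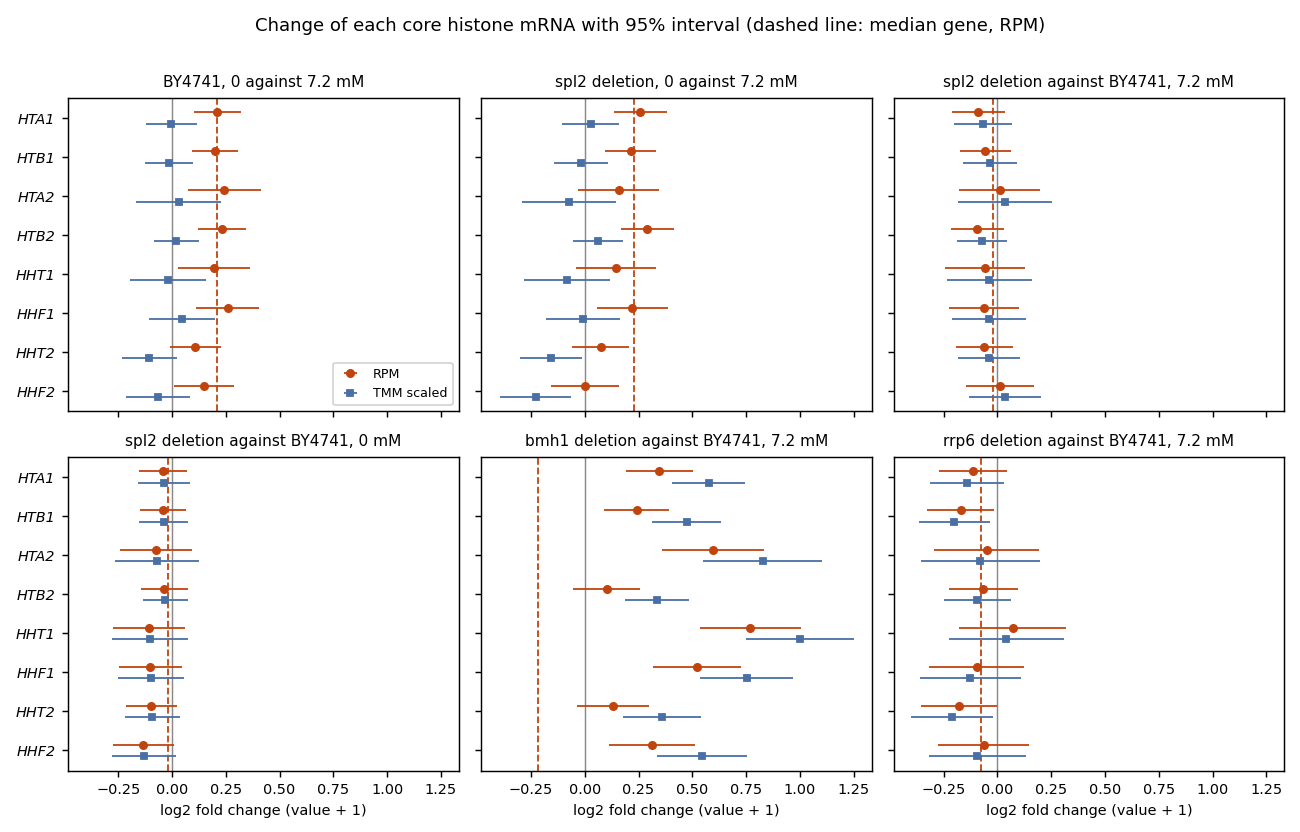
Change of each core histone mRNA (horizontal axis, log2 fold change of value + 1) with its 95% interval in 6 comparisons, on the RPM scale (circles) and after TMM scaling (squares). The solid line is no change and the dashed line the median gene on the RPM scale, which lies at 0.21 in the BY4741 phosphate comparison and at -0.22 in the bmh1 comparison.

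The ratio of the paralogous genes within a library does not depend on how libraries are scaled, and paralogues have the same coding length. The H4 ratio differed between the phosphate levels in experiment 1. HHF1 to HHF2 was 0.979 to 1.0 in the 3 BY4741 libraries at 7.2 mM and 1.02 to 1.11 in the 3 at 0 mM. In the spl2 deletion it was 0.933 and 0.946 at 7.2 mM and 1.08 to 1.10 at 0 mM. No library at 0 mM overlapped with one at 7.2 mM in either strain. Averaged over the strains the change was 0.16 on the log2 scale, or a factor of 1.12, higher in 6 of 6 libraries at 0 mM. Exact permutation of phosphate within strain gave a two-sided p of 0.005, the smallest that the 200 arrangements allow. In BY4741 alone the exact permutation p was 0.1, the smallest possible with 3 against 3. The single BY4741 libraries of experiments 2 and 3, both at 7.2 mM, had ratios of 0.851 and 0.926. How reads shared by these near-identical genes were counted is not given.

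The H2B ratio moved the other way and by less. HTB1 to HTB2 was 1.22 to 1.27 at 7.2 mM and 1.23 ± 0.012 at 0 mM in BY4741 (SD, n = 3), and 1.29 ± 0.040 (SD, n = 2) and 1.22 ± 0.0074 (SD, n = 3) in the spl2 deletion. The mean change was -0.06 on the log2 scale (exact permutation, two-sided p = 0.015), and p reached 0.05 when any of the 3 spl2 deletion libraries at 0 mM was left out. In BY4741 the lowest value at 7.2 mM, 1.22, lay inside the range of 1.21 to 1.24 at 0 mM.

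The H3 ratio HHT1 to HHT2 was 1.34 ± 0.075 and 1.42 ± 0.0094 in BY4741 at 7.2 and 0 mM, and 1.34 ± 0.031 and 1.41 ± 0.108 in the spl2 deletion. Its mean change of 0.08 did not pass (exact permutation, two-sided p = 0.13), and without spl2 deletion library 12 it was 0.11 with an exact p of 0.0167. The H2A ratio HTA1 to HTA2 changed by 0.03 (exact permutation, two-sided p = 0.485). Libraries 10 and 17 carried the highest HTA1 to HTA2 ratios of all 17, at 0.775 and 0.762, against 0.689 to 0.690 and 0.666 to 0.678 in the other BY4741 libraries of their groups. These p-values are for 4 ratios and are not adjusted.

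**Figure D3:**
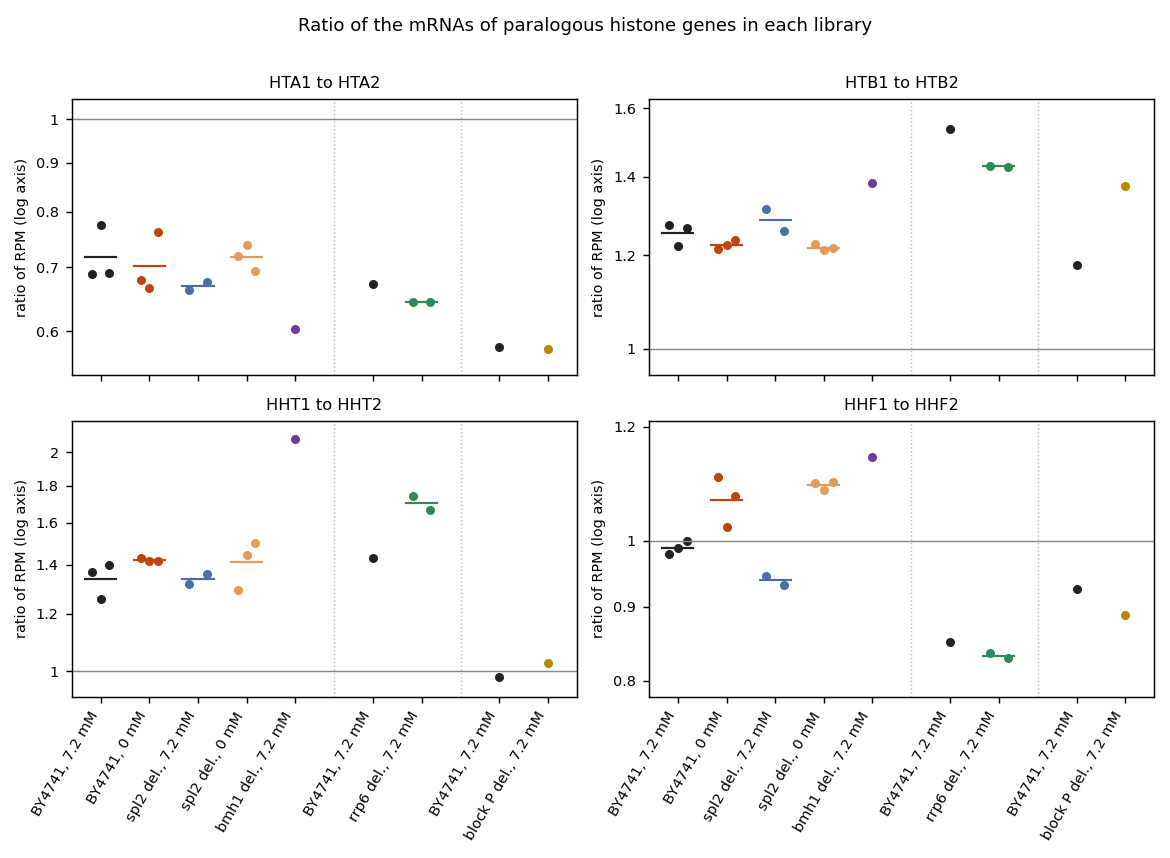
Ratio of the RPM of paralogous histone genes (vertical log axis) in each library, by strain and phosphate, with dotted lines between experiments and a grey line at a ratio of 1. Points are libraries and short lines are group means; HHF1 to HHF2 is 0.979 to 1.0 at 7.2 mM and 1.02 to 1.11 at 0 mM in BY4741, and HHT1 to HHT2 reaches 2.08 in the bmh1 deletion.

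The next comparisons asked whether loss of Spl2 itself moved histone mRNA. At 7.2 mM 0 of the 8 passed in limma (background 0.5% of the 6002 genes tested), 0 had an unadjusted p below 0.05 (13.5% of all genes), and edgeR and DESeq2 also called 0. The changes ran from -0.09 for HTB2 (95% interval -0.22 to 0.03) to 0.01 for HHF2 (-0.15 to 0.17). At 0 mM 0 of 8 passed in limma, at an unadjusted p below 0.05 and in edgeR and DESeq2. Of the 6031 genes tested 13.1% passed in limma and 29.7% had an unadjusted p below 0.05. All 8 values at 0 mM were below 0 on both scales, from -0.13 for HHF2 (-0.28 to 0.01) to -0.03 for HTB2 (-0.14 to 0.07). That direction turned in all 8 with the length trend removed, to 0.03 for HHF2 and up to 0.12 for HTB2, again with 0 of 8 called. The 369 other genes of 300 to 450 coding bases had a median of -0.15 on the RPM scale.

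Without BY4741 libraries 10 and 17, HTA2 passed as lower at 0 mM (-0.17, adjusted p = 0.0289, limma). A difference between the strains in the phosphate response itself was called for none of the histone genes in limma (0 of 8, 0 at an unadjusted p below 0.05, 0 in edgeR and DESeq2). Of the 6071 genes tested 14.5% were called and 31.1% had an unadjusted p below 0.05. Its 95% interval was -0.36 to 0.07 for HHF2 and -0.11 to 0.22 for HTB2. With the length trend removed, 3 of the 8 had a higher response in the spl2 deletion, HTA1 by 0.27, HTB1 by 0.24 and HTB2 by 0.28 (background 6.88%).

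The bmh1 deletion had the highest histone level in experiment 1, at 12929 RPM summed over the 8 genes. There is 1 such library, which the test assumes to vary like the other groups. Compared with BY4741 at 7.2 mM, 6 of the 8 histone mRNAs were higher and 0 lower, beside 15.2% of the 5987 genes tested called higher. The median gene was lower, at -0.22. After TMM scaling 8 of 8 were higher, beside 29.7% of genes, and edgeR (background 30.2%) and DESeq2 called 8 of 8.

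The histone H3 gene HHT1 changed most, from 1905, 1616 and 1838 RPM in BY4741 to 3036 RPM, a change of 0.77 ± 0.111 (adjusted p = 3.61e-05, limma). HTA2 went from 1106 to 1667 RPM (0.60 ± 0.112, adjusted p = 0.00031, limma) and HHF1 from 1420 to 2036 RPM (0.52 ± 0.097, adjusted p = 0.000277, limma). Each of these 3 mRNAs was above every BY4741 value of its group.

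HTA1 was higher by 0.35 ± 0.073, HHF2 by 0.31 ± 0.094 and HTB1 by 0.24 ± 0.071 (limma adjusted p of 0.000775, 0.0087 and 0.00761). HTB2 at 0.10 ± 0.073 and HHT2 at 0.13 ± 0.079 did not pass on the RPM scale. Their values of 817 and 1456 RPM still lay above the 3 BY4741 values. Of the divergent pairs, HTA2 and HTB2 had the least equal changes, at 0.60 and 0.10. The ratio of HTA2 to HTB2 was 2.04 here, against 1.29 to 1.56 in the 3 BY4741 libraries of experiment 1. It was 2.12 in the BY4741 library of experiment 2, and this ratio was not tested.

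This library differed from BY4741 along coding length, which moves with the histone result because the histone genes are short. The 357 other genes of 300 to 450 coding bases had a median change of 0.28, and 515 genes of at least 3000 bases had -0.54. The 19 other genes in that length range that reached 500 RPM had a median of 0.39, beside 0.33 for the 8 histone genes. With the length trend removed, 2 of the 8 remained higher (background 18.6%), HHT1 at 0.52 ± 0.091 (adjusted p = 0.00116, limma) and HTA2 at 0.34 ± 0.084 (adjusted p = 0.00758, limma). HTB1 and HHF2 then turned to -0.015 and -0.0053. RNA quality was not measured, and its part was not tested.

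The paralogue ratios, which do not depend on scaling and are of genes with the same coding length, also differed in the bmh1 deletion. Transcript ends were not measured, and a part of RNA quality in these ratios was not tested. HHT1 to HHT2 was 2.08, against 1.26 to 1.398 in the 3 BY4741 libraries. HHF1 to HHF2 was 1.14, against 0.979 to 1.0, and HTA1 to HTA2 was 0.603, against 0.689 to 0.775. HTB1 to HTB2 was 1.38, against 1.22 to 1.27. All 4 ratios thus lay outside the range of the 3 BY4741 libraries of experiment 1, with the H3 ratio the farthest. The single BY4741 libraries of experiments 2 and 3 also lay outside that range in all 4 ratios. Their HHT1 to HHT2 was 1.43 and 0.981, and their HTA1 to HTA2 was 0.673 and 0.577. There is 1 bmh1 deletion library, and these ratios were not tested.

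**Figure D4:**
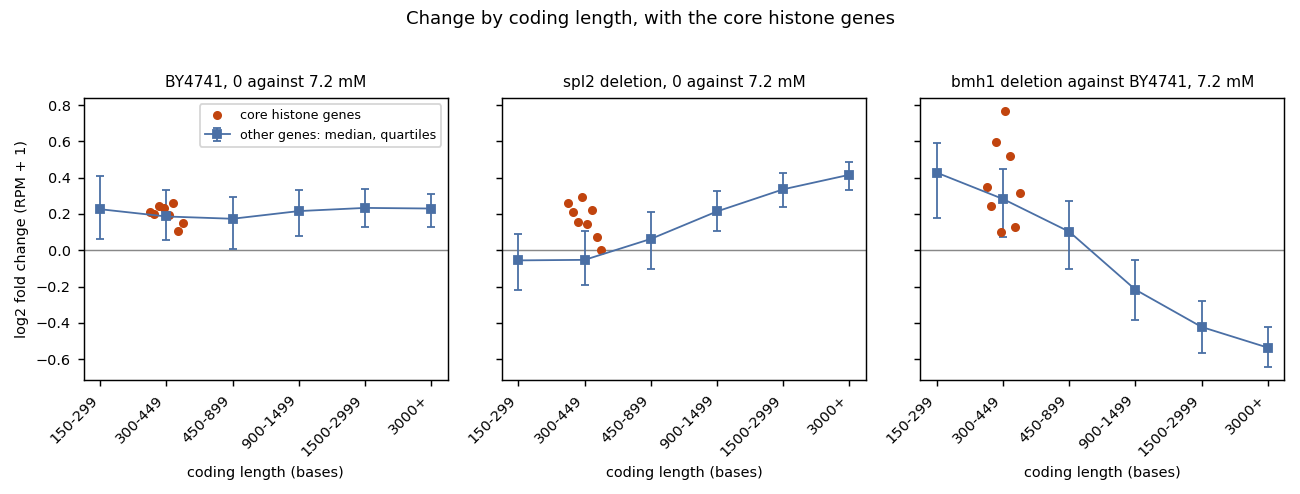
Change on the log2(RPM + 1) scale (vertical axis) by coding length in bases (horizontal axis) for the phosphate comparison in BY4741 and in the spl2 deletion and for the bmh1 deletion. Squares with bars are the median and quartiles of all other genes in a length bin and circles are the 8 core histone genes; the median falls from short to long genes in the bmh1 comparison, and HHT1 at 0.77 is the highest circle.

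The listed genes that act on histone transcription were also compared in the bmh1 deletion. Of 12 promoter regulators 0 were higher and 8 lower on the RPM scale, beside 48.8% of all genes lower, and 7 were lower after TMM scaling, beside 28.3%. SPT10 went from 25.2 to 14.7 RPM (-0.73 ± 0.097), HIR3, a subunit of the HIR complex, changed by -0.66 ± 0.101 and MBP1 by -0.57 ± 0.089. HHO1, HTZ1 and CSE4 did not pass on the RPM scale, at -0.17 ± 0.086, -0.13 ± 0.075 and -0.0041 ± 0.101. Of 13 chaperone and assembly genes 2 were higher and 9 lower on the RPM scale, and 3 were higher and 4 lower after TMM scaling, with RPM changes of -0.60 ± 0.067 for SPT6 and -0.54 ± 0.088 for SPT16, elongation factors that act on nucleosomes.

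Of 16 DNA replication genes of late G1, 2 were higher and 4 lower on the RPM scale, and 4 were higher and 0 lower after TMM scaling. All 10 G2 and M genes were lower on both scales, with a median of -0.87, led by HOF1 (-1.27 ± 0.114) and BUD4 (-1.09 ± 0.093), which act in cell division. Most genes of these lists are longer than the histone genes, so the length difference of the library moves with these counts too.

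The rrp6 deletion was compared with the BY4741 library of experiment 2, since Rrp6 takes part in the turnover of nuclear RNA. None of the 8 histone mRNAs passed in limma (0 of 8, background 40.6% of the 6039 genes tested), 2 had an unadjusted p below 0.05 (49.9% of all genes), edgeR called 0 and DESeq2 called 1. HTB1 was at 821 RPM in BY4741 and at 744 and 714 RPM in rrp6 deletion libraries C and D, a change of -0.17 ± 0.074 (adjusted p = 0.074, limma). HHT2 was at 1152 RPM and at 1049 and 986 RPM, a change of -0.18 ± 0.083 (adjusted p = 0.0926, limma). Both were lower in each rrp6 deletion library than in BY4741, by less than the test could call. HTA1, HTA2, HTB2 and HHF1 were also lower in both deletion libraries. The median gene was lower as well, at -0.08. The share of all genes that were lower in both deletion libraries is not given here.

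After TMM scaling HTB1 passed as lower (-0.20, adjusted p = 0.0449, limma, background 32.7%), and with the length trend removed HTB1 and HHT2 did (-0.18 and -0.19, background 23.8%). The median gene was itself at -0.11 after TMM scaling in this comparison, against -0.08 on the RPM scale. HTA1 was at 762 RPM in BY4741 and at 705 and 703 RPM in the deletion. HHT1 was the highest of the 8 changes, at 0.07 (95% interval -0.18 to 0.32), from 1648 RPM to 1826 and 1640 RPM. The intervals of the other 5, HTA1, HTA2, HTB2, HHF1 and HHF2, all held 0.

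HHT1 to HHT2 was 1.43 in BY4741 of experiment 2 and 1.66 and 1.74 in the rrp6 deletion. HTB1 to HTB2 was 1.54 in BY4741 and 1.43 in both deletion libraries, and HHF1 to HHF2 was 0.851 against 0.829 and 0.835. HTA1 to HTA2 was 0.673 in BY4741 and 0.644 in both deletion libraries. None of these ratios overlapped between the strains, but 1 BY4741 library stands against 2 of the deletion. The ratios were not tested.

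The linker histone gene and that of the centromeric H3 variant were lower in the rrp6 deletion. HHO1 went from 114 to 75.1 RPM (-0.60 ± 0.089, adjusted p = 5.88e-05, limma) and CSE4 changed by -0.32 ± 0.106. ASF1 went from 62.4 to 40.7 RPM (-0.61 ± 0.107), while SPT10 was higher (0.45 ± 0.112) and so was HIR3 (0.37 ± 0.117). In all 2 of the 12 promoter regulators were higher and 4 lower on the RPM scale, beside 15.9% and 24.6% of all genes. After TMM scaling 2 were higher and 7 lower, beside 15.9% and 32.7%. Of the 7 TRAMP and cofactor genes tested 3 were higher, TRF5 (29.5 to 77.7 RPM, 1.37 ± 0.109), AIR2 (0.75 ± 0.095) and AIR1 (0.27 ± 0.090), which encode subunits of the complex that marks nuclear RNA for the exosome.

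Loss of the block P segment upstream of SPL2 left all 8 histone mRNAs within 0.32 on the log2 scale of BY4741. There is 1 library per strain, so there is no test and no replicate check, and intervals cover counting error only. The 0 of 8 past that fold stand beside 13.6% of 5703 genes. HHT1 was at 2031 RPM in BY4741 and 2290 RPM in the deletion, or 1.13-fold (95% interval 1.12 to 1.14). HTB2 was at 929 and 814 RPM, or 0.877-fold (0.864 to 0.890). The other 6 lay between 0.987-fold for HHF1 and 1.10-fold for HTA2.

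BY4741 at 7.2 mM was sequenced in all 3 experiments, and its histone levels are set side by side here. Relative to the mean of experiment 1, HHT2 was 1.55-fold, HHF2 1.505-fold and HHF1 1.41-fold in experiment 3, while HTA1 was 0.963-fold. In experiment 2 HTB2 was 0.702-fold and HHF1 0.825-fold, and HTA2 was 1.02-fold. HHT1 to HHT2 was 1.34 ± 0.075 (SD, n = 3) in experiment 1, 1.43 in experiment 2 and 0.981 in experiment 3. The BY4741 libraries of experiments 2 and 3 are 1 each, so an experiment and a library cannot be told apart, and strains were compared only within experiments.

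Over all 17 libraries HHT2 had the widest range, from 986 to 2235 RPM (2.27-fold), and HTA1 the narrowest, from 703 to 1005 RPM (1.43-fold). The ratio of RPM within a divergent pair, not divided by coding length, ranged from 0.695 to 0.984 for HTA1 to HTB1. It ranged from 1.29 to 2.18 for HTA2 to HTB2. For HHT1 to HHF1 it ranged from 1.01 to 1.58, and for HHT2 to HHF2 from 0.759 to 1.01. The H3 genes are longer than the H4 genes, at 411 against 312 coding bases. Per kilobase of coding sequence HHF1 was above HHT1 in all libraries but the bmh1 deletion library and those of experiment 2. HHF2 was above HHT2 in every library on that scale. The pair of HTA2 and HTB2 was the most unequal, at 2.18 in rrp6 deletion library D. In experiment 2 the BY4741 library was at 2.12, between the rrp6 deletion libraries at 2.10 and 2.18. The genes on either side of 1 upstream region therefore did not keep a fixed ratio across libraries.

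The features whose pattern was most like that of the histone genes were found over the 12 libraries of experiment 1, from Pearson's r with the mean log2(RPM + 1) of the 8. They were YCR043C (r = 0.951), MAK31 (0.935), a subunit of an N-terminal acetyltransferase, YLR456W (0.932), RMI1 (0.932), a subunit of a complex with the helicase Sgs1 and topoisomerase Top3, and HRT3 (0.928). The 12 libraries share depth, scaling and coding length effects, and the bmh1 library lies at an end of the range. Without it the 5 values of r were 0.888 to 0.931. Among the histone genes HHF1 had the highest r (0.996) and HTB2 the lowest (0.731), which is 0.920 without the bmh1 library.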

How the data were processed

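Total RNA was extracted with a kit for yeast, stranded mRNA libraries were made and amplified by PCR, and an Illumina HiSeq instrument sequenced them, per the labels' protocols. The authors deposited 1 table of RPM values, which are the reads of a feature scaled to the same total in each library, for 7125 features in 17 libraries. Which aligner, counting tool and genome build were used, and whether counting used strand, is not given in the sources used here. Gene positions and upstream sequences are from RefSeq R64, joined to the table by gene name only. All RPM values came out as whole reads at a tolerance of 0.001 reads (100% in each library), so reads could be recovered. The level of 3 reads was 0.0672 to 0.172 RPM. Floors and intervals of read ratios cover counting error only.

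Groups follow the sample labels. For the spl2 deletion the series' description gives 3 cultures with phosphate and 2 without, and the labels give 2 and 3. The description speaks of independent cultures, and replicate libraries all differed by more than counting error (chi-square per gene, on average, of 3.84 to 26.9). By the growth protocol cultures at both phosphate levels may come from 1 parent culture, and no test models this. Library numbers are not shared between groups.

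The planned fit named limma for normalized values and edgeR for counts. As the table holds RPM, limma 3.58.1 (under R 4.3.3, trend on mean level) was run on log2(RPM + 1), with genes at 1 RPM or more in enough libraries to fill the smaller group, Benjamini-Hochberg adjustment over all genes tested and a threshold of 0.05. All 8 histone genes passed the filter. Fold changes on this scale understate those of low genes. The 12 libraries of experiment 1 shared 1 model (7 residual degrees of freedom), and the rrp6 contrast used 15 libraries (8 degrees). On recovered reads edgeR 4.0.16 called 2295 genes in the BY4741 phosphate comparison, against 4068 by limma on RPM, and DESeq2 1.42.0 called 2188. Paralogue ratios were tested by exact permutation (Python 3.11.15). The fits were tested on simulated data.

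The histone genes and the gene lists were chosen with earlier results of these data known. The named genes were the 8 histone genes, the deleted genes, the 3 or fewer called genes per list that changed most, and the 5 features most correlated with the histone mean among those at 10 RPM or more. The other histones are named in full for the BY4741 phosphate and the bmh1 comparisons only. Alternatives were TMM scaling, no filter, a pseudocount of 0.5, edgeR, DESeq2, only the groups compared, each replicate left out and, added after the data were seen, removal of the trend over coding length and omission of BY4741 libraries 10 and 17.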

Additional observations from a re-analysis of the deposited data

How the results depend on the processing

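The phosphate calls depended on scaling. In BY4741, 4068 genes and 6 histone genes higher became 2311 and 0 (TMM), 2295 and 0 (edgeR), 2188 and 0 (DESeq2), and 2402 and 0 (length trend removed). HTA1, HTB1 and HHT1 turned to -0.0023, -0.013 and -0.019 (TMM), -0.0019, -0.013 and -0.022 (edgeR), and -0.0033, -0.014 and -0.023 (DESeq2). HHT1 was also lost with no filter, at 0.19, and without libraries 10 and 17, at 0.16. In the spl2 deletion, 3984 genes became 2549 (DESeq2) and 1809 (length trend). Its 4 histone genes higher became 0 under TMM, edgeR and DESeq2, with 1, 1 and 2 lower. There HTB1, HHF1 and HHF2 turned to -0.017, -0.0088 and -0.23 (TMM), -0.022, -0.013 and -0.23 (edgeR), and -0.017, -0.0081 and -0.23 (DESeq2), and HHT2 to -0.16 (DESeq2). For the spl2 deletion against BY4741, 30 genes at 7.2 mM became 111 (DESeq2) and 81 (only the groups compared). At 0 mM, 789 became 1204, with 1 histone gene lower, without libraries 10 and 17. With the length trend removed, the response difference had 3 histone genes higher, and the bmh1 comparison went from 3832 to 2134 genes and from 6 to 2 histone genes, with HTB1 at -0.015 and HHF2 at -0.0053. In the rrp6 deletion the histone genes lower went from 0 to 1 (TMM), 1 (DESeq2) and 2 (length trend). In BY4741 alone HTB1 to HTB2 changed by -0.033 (exact p = 0.3) and HHF1 to HHF2 by 0.11 (exact p = 0.1, the smallest possible with 3 against 3). In experiment 3, 3.96% of genes passed 1.5-fold. The cause was not tested.

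Leaving out each replicate gave 3561 to 4001 genes and 4 to 8 histone genes higher in BY4741, and 3108 to 3919 genes and 3 to 5 histone genes higher in the spl2 deletion. For the spl2 deletion against BY4741 it gave 16 to 65 genes at 7.2 mM and 228 to 914 at 0 mM, and 506 to 1080 for the response difference, with 0 histone genes throughout. The bmh1 comparison had 3524 to 3791 genes and 6 to 6 histone genes, and the rrp6 comparison 1750 to 2099 genes and 0. The ratio changes ran from 0.0038 to 0.062 for HTA1 to HTA2, -0.071 to -0.039 for HTB1 to HTB2, 0.056 to 0.11 for HHT1 to HHT2 and 0.15 to 0.18 for HHF1 to HHF2, where the exact p stayed at 0.01 to 0.0167. No paired analysis was possible because the library numbers are not shared between groups. A pseudocount of 0.5 changed none of these counts by over 1.5 times. With 1 to 3 libraries a group, small differences between histone genes could not be resolved.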
